A study of Arabidopsis thaliana with 12 samples.

Results

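The comparison described here sets Arabidopsis root explants labelled CPL4RNAi against wild-type root explants, both kept on shoot-inducing medium without cytokinin. It was taken as the entries of the authors' deposited table that pair those groups, 33557 annotated features of 201342 entries in all, and it rests on 6 of the 12 samples of the series. The first group carries what the sample titles call CPL4RNAi and the genotype field calls CPL4 KO, and the series describes a knockdown. How many lines were used, and which promoter drives the construct, is not given in the sources used here. The other group is Col-0 gl1, which carries the gl1 marker, and both are of the Columbia background. All explants were roots whose shoots had been cut off at 10 days. They spent 5 days on auxin-rich callus-inducing medium and then 72 hours on a modified shoot-inducing medium in which the cytokinin 2iP (isopentenyladenine) was at 0 mg/L, and harvest was at an age of 18 days. A second pair of groups received 0.05 mg/L of 2iP and is used only for comparison. Each group held 3 samples, whose ribosomal RNA-depleted total RNA was sequenced as stranded paired reads of 125 nt.

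CPL4 belongs to a family of phosphatases that remove phosphate from the repeated tail of RNA polymerase II. Kinases of that tail drive the polymerase through initiation and elongation, and removal of the phosphate resets it. In root explants, auxin-rich medium turns founder cells next to the xylem into callus with the character of a young lateral root. Cytokinin then redirects part of that callus to shoots, so medium without cytokinin shows what the explants do when that signal is not supplied.

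Expression is given as FPKM, the fragments of a transcript scaled to its length and to the size of the library, as 1 value per group. A fold is the log2 ratio of the FPKM in CPL4RNAi-labelled explants to that in wild type, without a pseudocount. Calls follow the authors' deposited table, at a q-value of 0.05 or less. The standard error (SE) of a fold is the one its deposited p-value implies. Where that p stood at 5e-05, the smallest in the table, only the largest possible SE can be given and is written as "at most", and the deposited q was then 2.7e-04. These errors reflect the variance that the authors' program modelled from the 3 samples of a group. The samples are named as replicates without a statement that they were separate cultures, so the tests measure only the spread between them, and no value per sample was used here.

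The gene named in the label was higher, not lower, in the explants that carry the label. CPL4 (AT5G58003, chr5:23479804-23482048 in TAIR10) stood at 36.3 FPKM in CPL4RNAi-labelled explants and at 14.5 FPKM in wild type, a log2 fold of 1.33 (SE at most 0.33). RNA made from a construct and RNA of the gene itself cannot be told apart in a value summed over the gene, and whether a construct contributed was not tested. Every direction below is therefore that of the groups as labelled. CPL3, the closest relative of CPL4 in the list of 4 tail phosphatases, was also higher at 17.2 FPKM against 11.4 FPKM (0.59, SE at most 0.15). CPL1 and CPL2, the other two, had folds of 0.30 (SE 0.19) and 0.19 (SE 0.11) and were not called. A transcript of the substrate moved in the same direction, while the protein and its phosphorylation were not measured here. NRPB1, the largest subunit of RNA polymerase II, stood at 112 FPKM in CPL4RNAi-labelled explants and at 50.3 FPKM in wild type (1.15, SE at most 0.28). Among the tail kinases CDKC;1, CDKD;1 and CDKD;2 rose by 0.54, 0.66 and 0.41. CDKC;2, CDKD;3 and CDKF;1 were not called, with folds of -0.05, 0.32 and 0.08.

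The tests covered 19277 features, of which 4342 were called higher (22.5%) and 4150 lower (21.5%) in CPL4RNAi-labelled explants. These shares are the background against which every count below is to be read. The median fold of all tested features was 0.00, on values that the authors had already scaled between libraries. Changes of at least 2-fold were found in 1250 of the genes called higher and 1022 of those called lower, and changes of at least 8-fold in 169 and 65. These counts include called genes listed at 0 in 1 group, 32 in wild type and 6 in CPL4RNAi-labelled explants, for which no fold can be given. The depth of each library is unknown, and an FPKM of 1 or more was reached by 18486 features in CPL4RNAi-labelled explants and 18163 in wild type. Among folds that were not called the 95% bounds lay a median of 0.27 on the log2 scale from the estimate, so smaller changes could often not be detected. The defining genes of roots were expressed: WOX5, SHR and PLT1 stood at 55.2, 58.9 and 20.9 FPKM in CPL4RNAi-labelled explants and at 155, 50.6 and 43.9 FPKM in wild type. The stomatal genes SPCH, MUTE and FAMA and the small Rubisco subunit genes were at or near 0 in both groups. Other genes read as markers of shoot epidermis and greening were expressed. LTP1, FDH and LHCB4.1 stood at 1277, 119 and 10.6 FPKM in CPL4RNAi-labelled explants and at 1407, 145 and 24.7 FPKM in wild type.

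**Figure D1:**
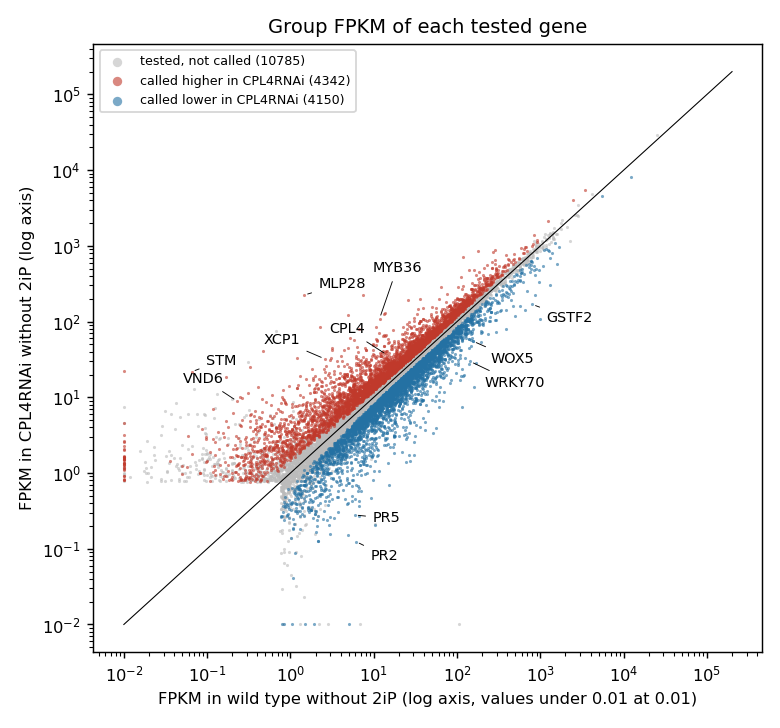
Group FPKM of each of the 19277 tested genes in CPL4RNAi-labelled explants (vertical, log axis) against wild type (horizontal, log axis) without 2iP, with genes called higher in red, called lower in blue and not called in grey. The red points reach farther from the diagonal than the blue ones, with STM at 21.7 against 0.0652 FPKM and MLP28 at 224 against 1.46 FPKM at the upper edge, and PR2 at 0.124 against 6.13 FPKM at the lower.

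The genes were read through 39 lists with 536 members, each described by its counts and its median fold beside those of all tested genes. Higher calls prevailed in the lists for xylem, secondary wall, lignin, endodermis and suberin, and in those for DNA replication and mitosis. Lower calls prevailed in the lists for salicylic acid and immunity, abscisic acid, auxin response, callus regulators, growth factors and phloem. In tissue pieces such as these, fewer cells of a type and less RNA per cell cannot be told apart. Where a list had 0 calls in a direction in the authors' Cuffdiff test, an unadjusted p of 0.05 or less gave 0 as well, apart from 1 root niche gene that was higher and 1 monolignol gene that was lower. Of the list members 50 overlap another gene and share its locus entry, and reads of such a pair may have been split between them.

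**Figure D2:**
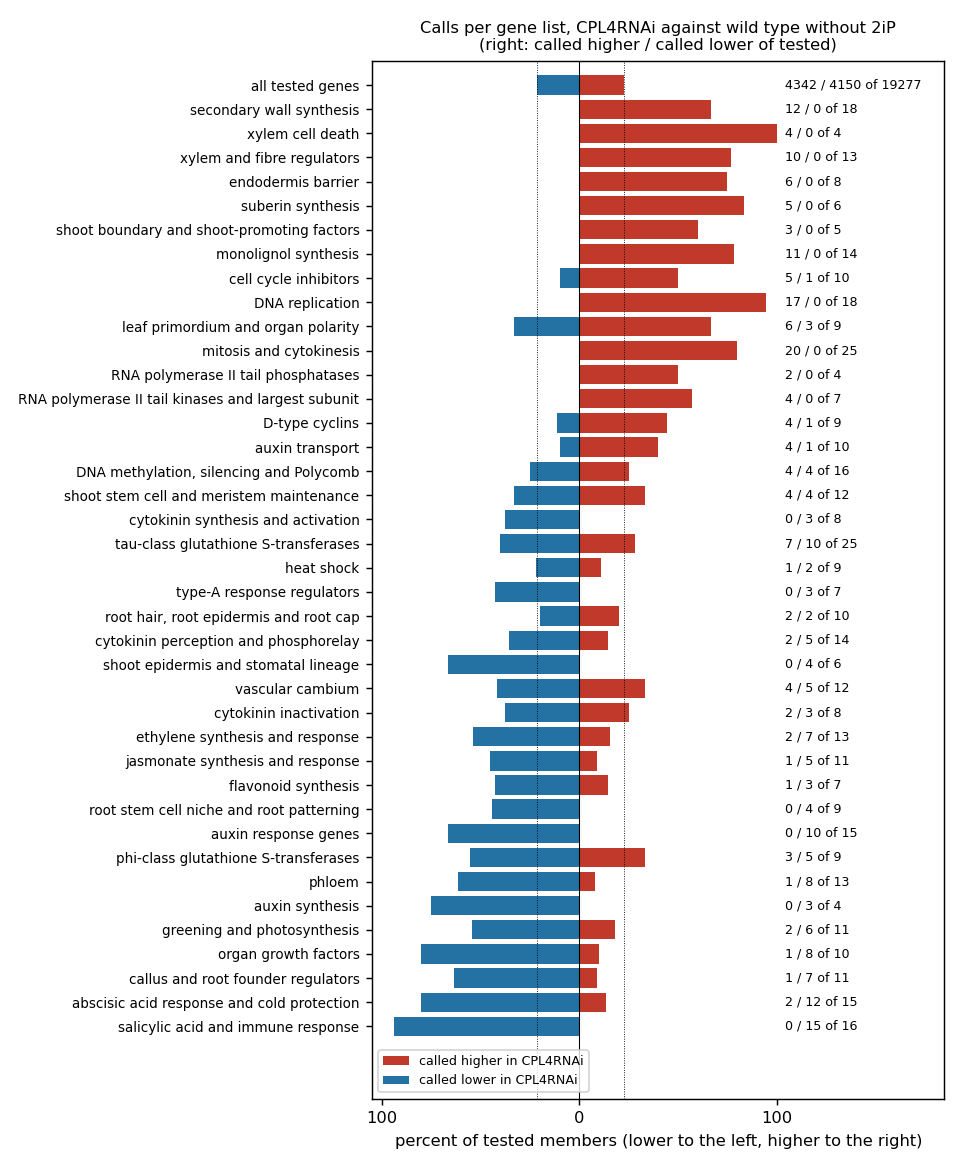
Percent of the tested members of each list called higher (red, to the right) or lower (blue, to the left) in CPL4RNAi-labelled explants against wild type without 2iP, with the counts at the right and dotted lines at the shares of all tested genes. Lists are ordered by median fold, from 3.01 for secondary wall synthesis at the top to -1.65 for salicylic acid and immune response at the bottom.

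The 3 lists of xylem regulators, secondary wall synthesis and xylem cell death had the highest median folds in the values given here. The order of the lists changed with the setting: secondary wall synthesis led here, xylem cell death with a pseudocount of 1 FPKM (2.52), and the regulators without overlapping genes (3.01). Xylem vessels form when VND-type NAC transcription factors switch on MYB factors, the enzymes of the secondary wall and the proteases that digest the dying cell. Of the 16 xylem and fibre regulators 13 were tested, 10 were called higher and none lower, with a median fold of 1.71 (1.03 with a pseudocount of 1 FPKM, below the endodermis list at 1.27, and 3.01 without overlapping genes). VND6 (chr5:25050684-25051858) stood at 8.92 FPKM in CPL4RNAi-labelled explants and at 0.228 FPKM in wild type (5.29, SE 1.76). VND4 had 4.97 FPKM against 0.259 FPKM (4.26, SE at most 1.05), and VND7, a master switch of vessel formation, 6.03 FPKM against 0.338 FPKM (4.16, SE at most 1.03). VND1 and VND3 rose less, by 1.71 and 1.61, VND2 was not called at 0.29 (SE 0.16), and VND5 was not called either, with a fold of 4.18 whose SE was 3.65. The pair of MYB factors under the VND proteins differed in what the test could resolve. MYB46 stood at 2.87 FPKM against 0.356 FPKM (3.01, SE at most 0.74), whereas MYB83 had 1.25 FPKM against 0.114 FPKM, a fold of 3.45 that missed the threshold (SE 1.73). XND1, a NAC factor that restrains vessel formation, rose by 1.25. The fibre regulators NST1 and NST3 were listed at or near 0 in both groups.

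Without 2iP the enzymes of the secondary wall moved in the same direction as the regulators. All 18 secondary wall genes were tested, 12 were called higher and none lower, and the median fold was 3.01. CESA4, CESA7 and CESA8 encode the cellulose synthase of the secondary wall. They stood at 5.48, 3.56 and 3.58 FPKM in CPL4RNAi-labelled explants and at 0.420, 1.18 and 0.400 FPKM in wild type, and each of the 3 overlaps another gene. Without overlapping genes, a choice made after the data had been seen, 7 of the 12 calls were left, and with a pseudocount of 1 FPKM the median fold was 1.32 in place of 3.01. The xylan synthesis genes IRX9 and GUX1 stood at 4.24 and 2.55 FPKM against 0.247 and 0.125 FPKM. CTL2, a chitinase-like protein of cellulose assembly, had 6.99 FPKM against 0.700 FPKM. LAC4, LAC11 and LAC17, the laccases that polymerise lignin, rose by 2.24, 2.59 and 3.13. Other xylan genes moved little: IRX14 rose by 0.29, and IRX10 and FRA8 had folds of 0.28 and -0.01 that were not called. IRX8, IRX15 and FLA11 had folds of 3.79, 3.80 and 3.10 with SEs of 2.04, 1.89 and 2.40, and were not called.

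All 4 genes of xylem cell death were called higher. XCP1 and XCP2, cysteine proteases that clear the contents of the dying vessel, stood at 32.3 and 23.4 FPKM in CPL4RNAi-labelled explants and at 2.57 and 1.83 FPKM in wild type. Their folds of 3.65 (SE at most 0.90) and 3.68 (SE at most 0.91) were close to each other. The metacaspase gene MC9 had 23.2 FPKM against 5.33 FPKM, and the nuclease gene BFN1, which is also used in senescence, 18.1 FPKM against 14.1 FPKM. A promoter element known as TERE marks genes of vessel formation, and it was searched on both strands in the 250 bases before each gene start after the expression values had been seen. It was found in 2 of the 4 cell death genes (50.0%) and 1 of the 12 secondary wall genes called higher (8.33%), against 0.368% of 27443 promoters of nuclear protein-coding genes. Among the 10 xylem and fibre regulators called higher it was found in 0. Counting all 18 secondary wall genes, called or not, it was found in 2. The matches are a description of the sequence and not evidence of binding. The 3 promoters of genes called higher with a match are given 5′ to 3′ on the strand of the gene. They are from the RefSeq TAIR10.1 assembly, with the match in capitals. XCP1 lies on the plus strand (chr4:16810232-16810481), as do MC9 (chr5:1153490-1153739) and CESA4 (chr5:17714140-17714389), and the matches end 64, 52 and 9 bases before the gene start.
XCP1: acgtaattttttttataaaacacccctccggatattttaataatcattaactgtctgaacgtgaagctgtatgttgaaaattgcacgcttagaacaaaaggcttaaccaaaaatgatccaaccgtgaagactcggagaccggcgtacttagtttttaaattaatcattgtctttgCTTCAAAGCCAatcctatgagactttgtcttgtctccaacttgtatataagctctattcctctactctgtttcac
MC9: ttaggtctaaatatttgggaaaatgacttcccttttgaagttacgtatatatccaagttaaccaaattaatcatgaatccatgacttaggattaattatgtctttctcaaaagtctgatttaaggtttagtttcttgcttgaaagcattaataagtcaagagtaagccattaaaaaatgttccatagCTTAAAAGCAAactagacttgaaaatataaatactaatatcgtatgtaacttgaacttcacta
CESA4: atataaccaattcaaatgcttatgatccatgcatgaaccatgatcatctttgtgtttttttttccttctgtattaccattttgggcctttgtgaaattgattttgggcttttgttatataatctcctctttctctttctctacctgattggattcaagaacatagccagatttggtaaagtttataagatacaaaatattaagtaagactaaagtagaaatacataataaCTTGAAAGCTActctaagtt

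Lignin precursors come from the monolignol pathway, which starts at phenylalanine. Of its 14 genes 11 were called higher and none lower, with a median fold of 0.77. Starting enzymes PAL1, PAL2 and C4H stood at 123, 63.2 and 335 FPKM in CPL4RNAi-labelled explants and at 76.7, 32.6 and 183 FPKM in wild type. In the middle of the pathway 4CL1 rose by 1.45 (SE at most 0.36) and CCOAOMT1 by 1.04 (SE at most 0.26). PAL4, F5H and CAD5 were not called, with folds of 0.03, -0.53 and -0.13. Apart from F5H, these genes stood at 13.4 FPKM or more in both groups, so the pathway was expressed in wild type too.

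**Figure D3:**
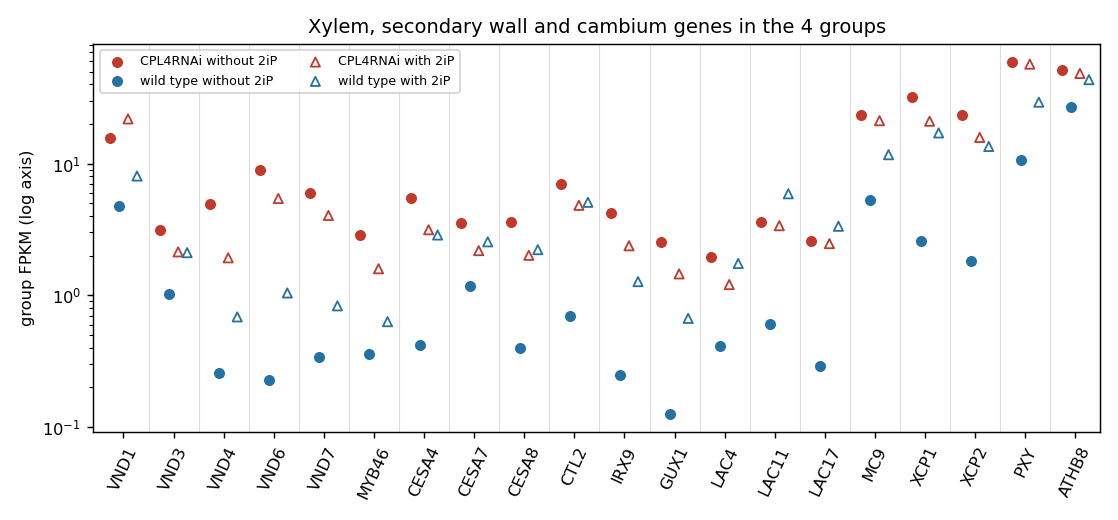
Group FPKM (log axis) of 20 xylem, secondary wall and cambium genes in CPL4RNAi-labelled explants (red) and wild type (blue), without 2iP (filled circles) and with 2iP (open triangles). The filled blue circle, wild type without 2iP, is the lowest of the 4 values for each gene shown.

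Cambium and phloem genes did not follow the xylem as a block. PXY, the receptor kinase of the cambium, stood at 59.5 FPKM in CPL4RNAi-labelled explants and at 10.7 FPKM in wild type (2.47, SE at most 0.61). Its downstream stem cell gene WOX4 had 10.1 FPKM against 4.26 FPKM, and the procambium gene ATHB8 51.0 FPKM against 26.7 FPKM. The peptide genes CLE41 and CLE44, whose product is the ligand of PXY, fell by 0.67 and 0.71. TMO6 and PEAR1, DOF factors of the phloem side, fell by 1.25 and 0.77. In all, 4 of 12 cambium genes were called higher and 5 lower. Of 13 tested phloem genes 1 was called higher and 8 lower, with a median fold of -0.68. The sucrose transporter gene SUC2 stood at 8.52 FPKM against 23.7 FPKM (-1.48, SE at most 0.36), the sieve element gene SEOR1 at 1.99 FPKM against 5.57 FPKM, and the phloem regulator APL at 3.30 FPKM against 6.11 FPKM. The single phloem gene called higher was OPS, at 22.8 FPKM against 12.2 FPKM.

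Genes of the root endodermis rose in CPL4RNAi-labelled explants. The endodermis seals the root with the Casparian strip, a band of lignin, and later with suberin. MYB36, the regulator that switches on Casparian strip genes, stood at 109.7 FPKM in CPL4RNAi-labelled explants and at 11.7 FPKM in wild type (3.22, SE at most 0.79). Its targets CASP1 and CASP2, scaffold proteins of the strip, had 26.5 and 7.79 FPKM against 9.07 and 2.51 FPKM. ESB1 and the receptor gene SGN3 rose by 1.34 and 1.47, and the peroxidase gene PER64 missed the threshold at 1.69 (SE 0.81). Of 8 tested barrier genes 6 were called higher and none lower, and the median fold was 1.59. Leaving out overlapping genes left 3 of the 6. Suberin synthesis genes had 5 of 6 members higher, led by the fatty acid hydroxylase gene CYP86A1 with 83.9 FPKM against 10.5 FPKM (3.00, SE at most 0.74). ASFT, which couples ferulate to suberin, stood at 106 FPKM against 41.4 FPKM, and KCS2 was not called.

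Other root surface genes were mixed. Root cap regulators SMB and FEZ stood at 20.3 and 4.51 FPKM in CPL4RNAi-labelled explants and at 7.86 and 0.836 FPKM in wild type, and both were called. BRN1 and BRN2, of the same NAC group as SMB, stood at 3.92 and 0.963 FPKM against 5.31 and 1.14 FPKM and were not called. The root hair regulators CPC and RHD6 fell by 0.95 and 0.66, while the root hair wall genes EXPA7 and EXPA18 were near 1 FPKM in both groups and were not called. Across the list 2 of 10 tested members were higher and 2 lower, close to the background.

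Cell cycle genes rose together and by modest amounts. Of 18 DNA replication genes 17 were called higher and none lower, with a median fold of 0.58. The helicase subunit genes MCM2, MCM3, MCM4, MCM5, MCM6 and MCM7 rose by 0.61, 0.73, 0.60, 0.60, 0.40 and 0.49. PCNA1, the sliding clamp of the replication fork, stood at 101 FPKM in CPL4RNAi-labelled explants and at 52.9 FPKM in wild type (0.92, SE at most 0.23). The exception was ORC1A, which was not called at 0.61 (SE 0.38). Mitosis and cytokinesis genes had 20 of 25 members higher and none lower, with a median fold of 0.48. CYCB1;1, a cyclin of cells about to divide, had 34.3 FPKM against 14.1 FPKM (1.28, SE at most 0.31), the largest fold of the list. The Aurora kinase genes AUR1 and AUR2 rose by 0.87 and 0.88, and the cytokinesis genes KNOLLE, HIK and MAP65-3 by 0.42, 0.50 and 0.55. CDC20.1, CDC20.2, CYCB1;4, EDE1 and MYB3R1 were not called. A change of at least 2-fold was reached by CYCB1;1 alone in the mitosis list and by 0 replication genes.

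Plant mitotic genes are known to carry the MSA element, whose core AACGG is bound by MYB3R factors, and replication genes the E2F site, here the letters TTTCCCGC, TTTGGCGC or TTTCGCGC. Both were searched on both strands of the same 250 bases. The MSA core was found in 15 of the 20 mitosis genes called higher (75.0%) and in 3 of the 17 replication genes, against 20.6% of all promoters. An E2F site was found in 7 of the 17 replication genes (41.2%) and in none of the 20 mitosis genes, against 1.13% of all promoters. Matches to these letters are a description of the window, and the lists were known for such elements before. CYCB1;1 and CYCB1;2, with 3 and 4 matches to the MSA core, and MCM2 and MCM5, with 1 E2F site each, are shown as examples, with matches in capitals (a match on the other strand reads CCGTT). They lie at chr4:17624309-17624558 (minus strand), chr5:1861704-1861953 (minus strand), chr1:16969964-16970213 (plus strand) and chr2:3527501-3527750 (minus strand), in the RefSeq TAIR10.1 assembly.
CYCB1;1: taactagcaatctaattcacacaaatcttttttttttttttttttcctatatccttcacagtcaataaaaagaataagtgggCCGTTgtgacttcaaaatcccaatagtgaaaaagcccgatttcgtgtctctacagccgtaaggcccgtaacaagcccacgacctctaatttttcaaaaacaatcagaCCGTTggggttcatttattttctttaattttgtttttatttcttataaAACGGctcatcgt
CYCB1;2: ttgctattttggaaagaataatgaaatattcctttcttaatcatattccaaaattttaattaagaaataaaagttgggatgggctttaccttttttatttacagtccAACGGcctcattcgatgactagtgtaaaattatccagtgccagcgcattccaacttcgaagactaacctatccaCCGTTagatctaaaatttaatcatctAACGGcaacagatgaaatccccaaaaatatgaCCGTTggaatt
MCM2: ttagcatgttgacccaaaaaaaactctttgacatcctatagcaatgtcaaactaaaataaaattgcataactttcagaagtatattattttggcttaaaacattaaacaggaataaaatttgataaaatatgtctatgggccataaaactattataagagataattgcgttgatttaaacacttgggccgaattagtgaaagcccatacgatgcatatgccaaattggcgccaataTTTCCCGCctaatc
MCM5: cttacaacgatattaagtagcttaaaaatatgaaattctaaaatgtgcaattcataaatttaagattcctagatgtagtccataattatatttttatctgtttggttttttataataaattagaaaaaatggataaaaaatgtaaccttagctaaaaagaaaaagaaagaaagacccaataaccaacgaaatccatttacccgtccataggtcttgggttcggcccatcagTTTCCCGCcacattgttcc

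Regulators of entry into the cycle moved in both directions. CYCD3;1, the D-type cyclin that cytokinin is known to induce, stood at 230.2 FPKM in CPL4RNAi-labelled explants and at 76.1 FPKM in wild type (1.60, SE at most 0.39). Its relative CYCD3;2 fell by 0.55, and CYCD4;1 and CYCD6;1 rose by 0.99 and 1.14. Inhibitors of the cycle rose as well. KRP7 had 5.40 FPKM against 1.70 FPKM (1.67, SE at most 0.41), and SIM, which promotes endoreduplication, 15.9 FPKM against 7.92 FPKM. Of 10 inhibitor genes 5 were called higher and 1, KRP4, lower.

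Shoot meristem genes split. WUS, the stem cell organiser of the shoot, was at 1.32 FPKM in CPL4RNAi-labelled explants and listed at 0 in wild type, and it was called higher in the authors' deposited table. STM (chr1:23058582-23061722), which keeps meristem cells undifferentiated, stood at 21.7 FPKM against 0.0652 FPKM, a fold of 8.38 with an SE of 2.78. That was the largest fold of any named gene that was above 0 in both groups. With 2iP STM stood at 21.9 FPKM against 0.0436 FPKM, a fold of 8.97 with an SE of 7.86, and was not called. The receptor genes CLV1 and BAM1 rose by 1.12 and 0.48. Other KNOX and BELL members went the other way: KNAT1 had 6.61 FPKM against 20.6 FPKM (-1.64, SE at most 0.40), KNAT6 26.9 FPKM against 37.9 FPKM, and their partner PNY 1.00 FPKM against 2.93 FPKM. CLV3, the signal that WUS is known to induce, stood under 0.1 FPKM in both groups and was not tested. In all, 4 of 12 tested members were higher and 4 lower. The boundary genes CUC1 and CUC2, which mark where shoot primordia separate, stood at 17.8 and 28.0 FPKM in CPL4RNAi-labelled explants and at 1.88 and 10.5 FPKM in wild type, with folds of 3.24 (SE at most 0.80) and 1.42 (SE at most 0.35). LAS rose by 0.57, and ESR1, at 0.769 FPKM against 0.397 FPKM, was not called.

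Leaf polarity genes divided by side of the organ. The HD-ZIP III genes PHB, PHV, REV and CNA, which specify the upper side and the vascular pattern, rose by 0.49, 0.79, 0.59 and 0.49. The leaf genes AS1 and AS2 had 15.1 and 2.64 FPKM against 10.3 and 0.617 FPKM. KAN1, KAN2 and KAN3, which specify the lower side, fell by 0.87, 1.14 and 1.76, and FIL was listed at 0 in both groups. All 9 tested members of this list were called, 6 higher and 3 lower; at a q of 0.01 only 1 of the lower calls was left. Growth factors of young organs were mostly lower. GIF1, the partner of the GRF factors, stood at 21.8 FPKM in CPL4RNAi-labelled explants and at 62.6 FPKM in wild type (-1.52, SE at most 0.38), and GRF3 at 4.74 FPKM against 14.6 FPKM. ANT was the single member called higher, at 9.68 FPKM against 3.83 FPKM, beside 8 of 10 called lower.

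Several regulators of the root stem cell niche, and most of those of callus, were lower. WOX5, the organiser of the root stem cell niche, stood at 55.2 FPKM in CPL4RNAi-labelled explants and at 155 FPKM in wild type (-1.49, SE at most 0.37). PLT1, SCR and JKD fell by 1.07, 0.65 and 1.31, while PLT2 and SHR, with folds of 0.14 and 0.22, were not called. No gene of this list was called higher and 4 of 9 were called lower. Of 11 callus and root founder regulators 7 were called lower and 1 higher, with a median fold of -0.81. LBD16, LBD17, LBD18 and LBD29 turn the auxin signal into callus, and they fell by 1.17, 0.81, 0.99 and 1.16. WOX11, which marks founder cells, had 11.9 FPKM against 36.0 FPKM (-1.59, SE at most 0.39). The exception was ERF115, a factor of wound-induced division, with 3.00 FPKM against 1.06 FPKM (1.50, SE 0.41). WIND1, a regulator of wound-induced callus, was not called at 0.15 (SE 0.10).

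With no cytokinin in the medium, each cytokinin list had more lower than higher calls, on few tested members. Of 14 tested perception genes 5 were lower and 2 higher, of 8 synthesis genes 3 were lower and 0 higher, and of 8 inactivation genes 3 were lower and 2 higher. Without overlapping genes the median fold of the inactivation list turned from -0.31 to 0.03, and 1 of its 3 lower calls was left. With a 2-fold minimum the perception and inactivation lists each had 1 higher and 1 lower call. The type-A response regulators are rapid targets of the signal and restrain it, and 3 of 7 tested members were lower and none higher. ARR9 stood at 67.2 FPKM in CPL4RNAi-labelled explants and at 108 FPKM in wild type (-0.68, SE at most 0.17), and ARR7 and ARR8 fell by 0.59 and 0.38. ARR4, ARR5 and ARR6, the most abundant of the rest, had folds of -0.12, -0.25 and 0.02 that were not called. Upstream, the receptor genes AHK2 and AHK3 and the phosphotransfer gene AHP1 fell by 0.41, 0.47 and 1.05, and the receptor gene AHK4 was not called at 0.12. Among the type-B factors, which activate transcription, ARR1 and ARR2 fell by 0.42 and 0.42 and ARR14 rose, with 5.98 FPKM against 1.53 FPKM (1.97, SE at most 0.49). Of the genes that make active cytokinin, LOG5 had 1.36 FPKM against 14.8 FPKM (-3.44, SE at most 0.85), and LOG1 and LOG8 fell by 1.30 and 0.47. The cytokinin oxidase genes CKX3 and CKX6 stood at 59.8 and 2.99 FPKM in CPL4RNAi-labelled explants and at 116 and 17.4 FPKM in wild type, and the glucosyltransferase genes UGT85A1 and UGT76C2 rose by 1.37 and 0.30.

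Auxin response genes were lower in CPL4RNAi-labelled explants. Of 15 tested members 10 were called lower and none higher, with a median fold of -0.53. The repressor genes IAA3, IAA5 and IAA30 stood at 3.76, 4.14 and 36.1 FPKM in CPL4RNAi-labelled explants and at 9.85, 13.4 and 69.7 FPKM in wild type. GH3.1, GH3.2 and GH3.6, whose enzymes conjugate auxin to amino acids, fell by 1.45, 0.85 and 1.47, whereas GH3.3 and GH3.5 were not called at -0.10 and -0.17. Of 12 auxin synthesis genes only 4 were tested. YUC3, YUC4 and YUC8 fell by 0.84, 0.65 and 1.15, and TAA1, at 5.67 FPKM against 6.30 FPKM, was not called. Transport genes did not follow: PIN3 and PIN7 rose by 0.55 and 0.28, PIN6 stood at 4.17 FPKM against 0.495 FPKM (3.07, SE at most 0.76), and LAX1 fell by 1.01.

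Salicylic acid and immune genes gave the most uniform lower calls, 15 of 16 tested members and none higher, with a median fold of -1.65. Salicylic acid is a defence hormone that in Arabidopsis is made through ICS1 and PBS3 and accumulates with the regulators EDS1 and PAD4. ICS1 stood at 16.0 FPKM in CPL4RNAi-labelled explants and at 56.3 FPKM in wild type (-1.81, SE at most 0.45), and PBS3 at 27.7 FPKM against 139 FPKM (-2.32, SE at most 0.57). The transcription factor genes SARD1 and CBP60G, which switch on ICS1, fell by 2.39 and 1.32. EDS1 and PAD4 had 30.5 and 19.8 FPKM against 87.4 and 73.8 FPKM. Downstream, WRKY70 stood at 29.8 FPKM against 144 FPKM, and the pathogenesis-related genes PR2 and PR5 at 0.124 and 0.279 FPKM against 6.13 and 5.90 FPKM. NPR1, the receptor-linked coactivator, fell by 0.84. PR1 stood under 0.1 FPKM in both groups and was not tested, and WRKY53 was not called at 0.00 (no SE given).

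Abscisic acid genes were lower too, with 12 of 15 tested members called lower and 2 higher and a median fold of -1.42. Abscisic acid signals water shortage, and clade A phosphatases of type 2C both repress the signal and are induced by it. Of the 9 clade A genes 8 were tested and 7 were called lower. HAI1, HAI2 and HAI3 stood at 8.96, 3.28 and 3.44 FPKM in CPL4RNAi-labelled explants and at 55.0, 24.6 and 18.0 FPKM in wild type, and HAB2 was not called. NCED3, a rate-limiting enzyme of abscisic acid synthesis under drought, had 0.575 FPKM against 3.70 FPKM (-2.69, SE at most 0.66), and the stress gene RD29A 0.490 FPKM against 5.54 FPKM (-3.50, SE at most 0.86). The dehydrin genes did not move as a block. LTI30 had 29.1 FPKM against 78.0 FPKM, whereas COR47 and ERD10 rose by 0.62 and 1.10.

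**Figure D4:**
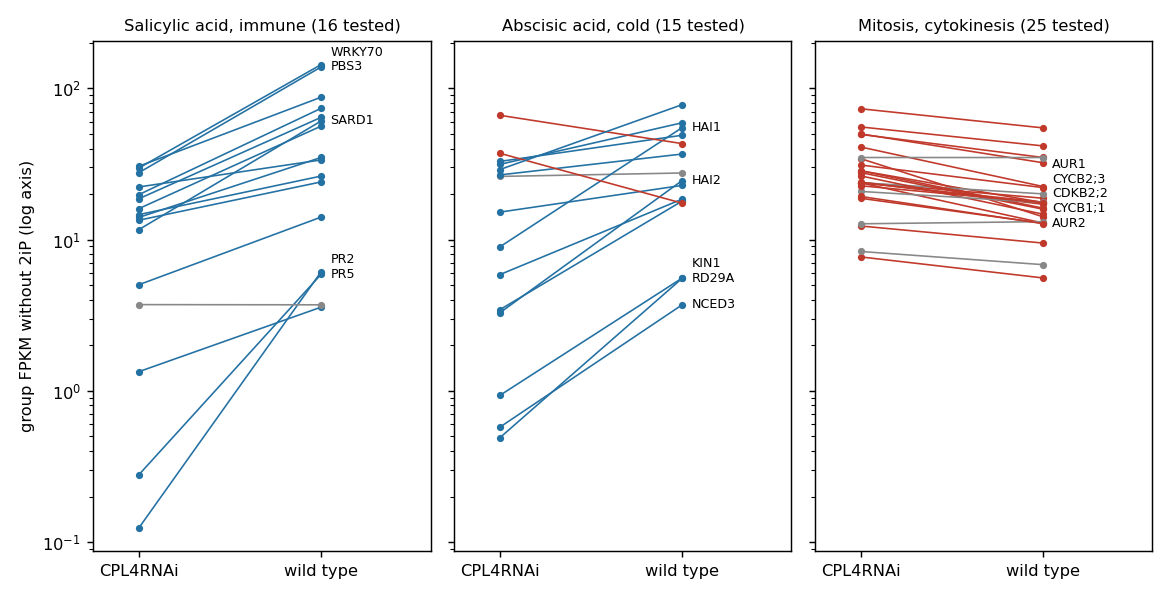
Group FPKM (log axis) without 2iP in CPL4RNAi-labelled explants (left of each panel) and wild type (right), 1 line per tested gene, red where called higher in CPL4RNAi-labelled explants, blue where called lower and grey where not called. The 5 genes with the largest fold are named in each panel: 15 of 16 salicylic acid and immune genes were called lower, 12 of 15 abscisic acid genes were called lower and 20 of 25 mitosis genes were called higher.

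Other stress hormones showed smaller shifts. Of 13 ethylene genes 7 were lower and 2 higher: the synthesis gene ACS8 stood at 5.83 FPKM in CPL4RNAi-labelled explants and at 27.1 FPKM in wild type (-2.22, SE at most 0.55), and the receptor gene ERS2 fell by 1.48. Of 11 tested jasmonate genes 5 were lower and 1, JAZ10, higher, and the defence gene PDF1.2A was listed at 0 in both groups. Among phi-class glutathione S-transferases, enzymes of detoxification whose near-identical neighbouring copies may exchange reads, GSTF2 had 169 FPKM against 797 FPKM (-2.24, SE at most 0.55) and GSTF14 42.7 FPKM against 9.80 FPKM (2.12, SE at most 0.52). The list had 3 of 9 tested members higher and 5 lower. The tau class had 7 of 25 higher and 10 lower, from -1.55 for GSTU11 to 1.68 for GSTU23. Flavonoid genes had 1 of 7 higher and 3 lower, with the regulator MYB11 at 0.302 FPKM against 3.67 FPKM (-3.60, SE at most 0.89). Heat shock genes had 1 of 9 higher, HSP18.2 at 2.36, and 2 lower. Greening genes had 2 of 11 tested members higher and 6 lower, and their highest level in either medium was 25.8 FPKM.

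Silencing and Polycomb genes showed 4 of 16 tested members higher and 4 lower, close to the background. The maintenance DNA methyltransferase genes MET1 and CMT3 and the remodeller gene DDM1 rose by 0.60, 0.44 and 0.36, AGO6 rose by 1.14, and AGO10 and the Polycomb gene SWN fell by 0.50 and 0.40. AGO9 stood at 8.35 FPKM in CPL4RNAi-labelled explants and at 0.0419 FPKM in wild type, and with an SE of 3.79 its fold of 7.64 was not called. In the shoot epidermis list 4 of 6 tested members were lower and none higher, among them PDF1 with 10.1 FPKM against 27.8 FPKM, and at a q of 0.01 2 of these calls were left.

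Over the whole table, the genes with the largest folds were named by a rule, the 12 in each direction that reached at least 5 FPKM in the group with more. Those called higher included MLP28 (chr1:26709947-26711462), of the major latex protein family, at 224 FPKM in CPL4RNAi-labelled explants and 1.46 FPKM in wild type (7.26, SE at most 1.79). AT1G63210 (chr1:23443688-23447354), annotated as a transcription elongation factor of the Spt6 type, stood at 18.3 FPKM against 0.170 FPKM (6.75, SE at most 1.66), and AT5G45990, annotated as a crooked neck protein of the splicing machinery, at 24.8 FPKM against 0.324 FPKM. AT1G23160, of the GH3 family, had 41.2 FPKM against 0.468 FPKM. AT2G18190, AT5G59845, AT5G61660, AT1G02770, ARI13 and AT4G22960 had folds between 5.07 and 5.90, and STM and VND6 complete the 12. Among genes called lower, AT1G76470 (chr1:28689770-28691449) of the NAD(P)-binding Rossmann-fold superfamily had 0.208 FPKM against 10.4 FPKM (-5.64, SE 1.88). Also among the 12 were GolS2, a galactinol synthase, with 0.270 FPKM against 6.58 FPKM, LEA4-5 with 0.701 FPKM against 15.4 FPKM, and ABCG40, an importer of abscisic acid, with 0.362 FPKM against 6.61 FPKM. MYB62 fell by 4.29. The germin-like genes GLP6 and AT5G39130, which lie near each other on chromosome 5 and may share reads, fell by 3.97 and 3.96. AT5G63350, AT1G22160, AT1G07985, PR2 and PR5 complete the 12 lower genes.

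Some genes were listed at 0 in 1 group and therefore have no fold. In wild type 32 called genes were listed at 0, the most abundant of them in CPL4RNAi-labelled explants being AT1G20320, annotated as a hydrolase, at 22.3 FPKM. The next 7 were AT4G26055, AT1G04660, AT1G24010, AT5G17090, SK12, AT1G27580 and AT1G62690, at 2.04 to 4.62 FPKM. In CPL4RNAi-labelled explants 6 called genes were listed at 0. AT1G04560, annotated as a member of the AWPM-19-like family, stood at 5.10 FPKM in wild type, followed by AT5G58390, AT3G63360, AT4G27654, CNGC11 and AT2G29150 at 0.798 to 1.92 FPKM. Of 169 genes called at least 8-fold higher, those listed at 0 in wild type included, 53 (31.4%) lie on chromosome 1. Chromosome 1 holds 26.1% of the tested genes.

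Non-coding genes are given by class. The libraries are stranded, but the strand setting of the counting is not given in the sources used here, so an antisense transcript and its partner may share reads. Of 136 long non-coding RNA genes tested 2 were higher and 35 lower, with a median fold of -0.32, and of 112 genes of other non-coding RNA 16 were higher and 40 lower. Protein-coding genes had 4244 of 18609 higher and 4001 lower, with a median of 0.01. Small nuclear RNA genes, which CPL4 is known in Arabidopsis to affect and whose products form the spliceosome, had 7 of 9 tested members called higher. With 2iP only U2.2, U2.5 and U4.2 were called higher. There U2.3, U2.6, U2.7 and U12 were not called, and U1.5 and U2.4, not called without 2iP, were lower. In the normal test between media given below, the folds of U1.5, U2.3, U2.6 and U12 were larger without 2iP, by 0.62, 0.57, 0.54 and 0.90. U12 stood at 507 FPKM in CPL4RNAi-labelled explants and at 212 FPKM in wild type (1.26, SE at most 0.31). AT1G61280, the protein-coding gene just downstream of U12 on the same strand, had 124 FPKM against 4.94 FPKM, and over the 16 tested protein-coding genes that start within 2000 bases downstream of such a gene 6 were higher and 3 lower. FPKM of genes as short as these depends strongly on how fragments were assigned.

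Among 19 tested microRNA genes 4 were called higher (21.1%) and 2 lower (10.5%). These libraries measure the precursor transcript and not the mature microRNA. MIR156c, whose mature product holds plants in the juvenile phase by repressing SPL genes, stood at 2.59 FPKM in CPL4RNAi-labelled explants and at 30.3 FPKM in wild type (-3.54, SE at most 0.87). MIR167d, whose product targets auxin response factors, stood at 1.88 FPKM against 0.433 FPKM (2.12, SE at most 0.52). The mature sequences of both called extremes are given 5′ to 3′ as DNA from the RefSeq TAIR10.1 assembly, with the seed (bases 2 to 8) in capitals; MIR167a, not called at -1.19, carries the same seed as MIR167d.
miR156c-5p: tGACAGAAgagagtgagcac
miR167d: tGAAGCTGccagcatgatctgg
Of 11 SPL genes that miR156 is known to target, a list added after the values had been seen, 4 were tested and none was called, in either direction. SPL2, SPL6, SPL10 and SPL11 had folds of 0.20 (SE 0.14), 0.05 (SE 0.16), -0.17 (SE 0.14) and 0.00 (no SE given). SPL3, SPL4 and SPL5 stood under 0.1 FPKM in both groups.

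The same genotypes on medium with 2iP form a second comparison that shares no library with this one. There 4741 of 19209 tested genes were called higher (24.7%) and 4752 lower (24.7%). Of the genes tested in both media, 3363 were called higher in both, which is 78.5% of those higher without 2iP and 71.9% of those higher with it. Lower in both were 3448, or 83.7% of those lower without 2iP and 72.9% of those lower with it. Opposite calls were rare, with 39 genes higher without and lower with 2iP and 8 the reverse. Across 18901 genes, which are not independent of each other, the folds of the 2 media had a Pearson correlation of 0.87. Salicylic acid, abscisic acid, mitosis and replication genes kept their direction with 2iP: the median folds of these lists were -1.65, -1.42, 0.48 and 0.58 without and -1.05, -1.53, 0.46 and 0.78 with 2iP. The 3 xylem lists together had a median fold of 2.92 without and 0.19 with 2iP. Without 2iP 26 of their 35 tested members were higher and 0 lower, and with 2iP 9 of 32 were higher and 2 lower. The xylem and fibre regulators alone had a median of 1.71 without and 1.33 with 2iP. Secondary wall synthesis had 3.01 and -0.08, and xylem cell death 2.89 and 0.26.

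**Figure D5:**
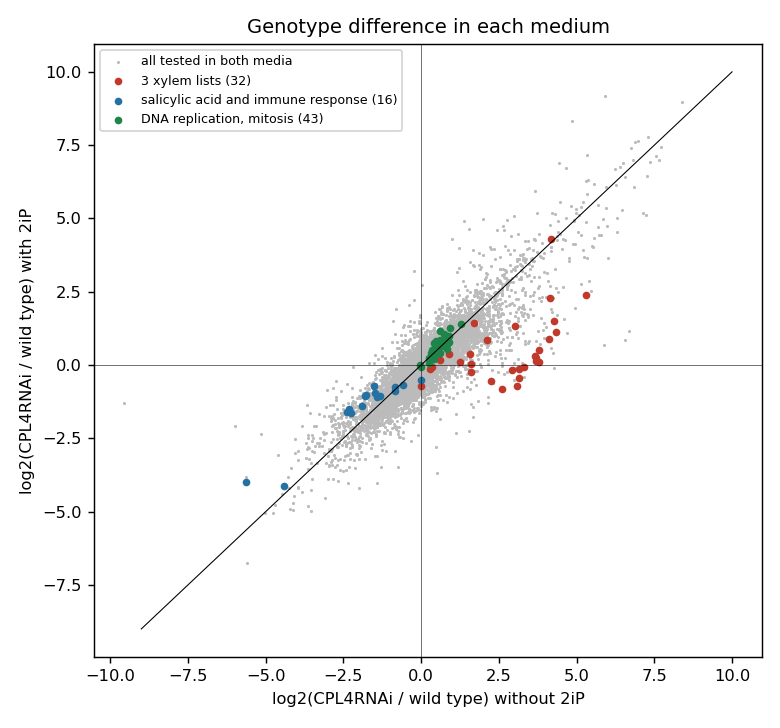
Log2 fold of CPL4RNAi-labelled explants over wild type with 2iP (vertical) against that without 2iP (horizontal) for each gene tested in both media and above 0 in all groups, with members of 3 kinds of list in colour and the diagonal drawn. Most xylem genes (red) lie to the right of the diagonal. Their median fold was 2.92 over the 35 tested without 2iP and 0.19 over the 32 tested with it. Over the 28 tested for a difference between media the median difference was 1.75. Mitosis and replication genes (green) lie near the diagonal, and immune genes (blue) have a median fold of -1.65 without and -1.05 with 2iP.

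Whether a fold differed between the media was tested gene by gene, as the fold without minus the fold with 2iP. Of 18384 genes tested, 376 had a larger fold without 2iP (2.05%) and 87 a smaller one (0.473%), at a Benjamini-Hochberg adjusted p of 0.05 or less in a normal test. For 230 of these 463 calls the SE used was the largest that the deposited p-values allow. LAC17 and XCP2 had the largest called positive differences among the list genes, 3.57 (SE at most 0.79) and 3.45 (SE at most 0.73). XCP2 stood at 15.8 FPKM in CPL4RNAi-labelled explants and at 13.5 FPKM in wild type with 2iP, so that the genotypes were close with 2iP and far apart without it. The same held for XCP1, with 21.0 FPKM against 17.1 FPKM with 2iP and a difference of 3.36 (SE at most 0.69), and for CESA8, with 2.01 FPKM against 2.22 FPKM and a difference of 3.30 (SE at most 0.60). In total 11 of 28 tested members of the 3 xylem lists and 7 of 14 monolignol genes had a larger fold without 2iP, and 0 had a smaller one, also at an unadjusted p of 0.05. The median difference of the 28 xylem genes was 1.75. PXY and ATHB8 in the cambium list differed by 1.51 and 0.78. VND4, VND6 and VND7 differed by 2.77 (SE at most 1.00), 2.91 (SE at most 0.97) and 1.88 (SE 0.63), and none of these was called.

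Differences in the negative direction were fewer. ARR7 and ARR4, type-A response regulators, had 46.7 and 223 FPKM in CPL4RNAi-labelled explants and 33.5 and 163 FPKM in wild type with 2iP, and differed by -1.07 (SE at most 0.23) and -0.57 (SE 0.16). IAA5 stood at 19.4 FPKM against 18.6 FPKM with 2iP and differed by -1.76 (SE at most 0.45). PBS3 differed by -0.83 (SE at most 0.25) and was lower in CPL4RNAi-labelled explants in both media. Of the 43 DNA replication and mitosis genes 0 were called in this normal test and 3 reached an unadjusted p of 0.05 or less, all 3 with a smaller fold without 2iP, and their median difference was -0.05.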

How the data were processed

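Total RNA of 12 Arabidopsis root explant samples, 3 in each of 4 groups, was depleted of ribosomal RNA and sequenced. The deposited FPKM values, 1 per gene and group, came from the authors' Cuffdiff comparison, per the file headers, which give status, p-value and q-value for each pair of groups. The submitters' processing notes name Cuffdiff 2.2.1.3, TopHat2 2.0.14 and bcl2fastq 2.17.1.14 and the genome build TAIR10. Recomputed with the Benjamini-Hochberg method over the table's 115069 tests, q-values differed from the deposited ones by at most 5.3e-07. Values per sample and library depths were not used here. Each group is pooled from 3 samples, so precision is known only through the deposited p-values.

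Folds are ratios of these FPKM with no pseudocount. Calls needed status OK and a deposited q of 0.05 or less. The SE of a fold is its size divided by the normal quantile of its deposited p-value, which is 4.06 at the smallest p. No SE is given where that p was above 0.95, too near 1 to imply a precision. The difference of folds between media was tested with a normal test and Benjamini-Hochberg adjustment. Its variance, that of the 4 groups summed, came from the deposited p-values of pairs of comparisons that hold each group once. Where no pair gave a solution, the lowest upper bound was used. The procedure was tested on simulated data. Differences were left out for 469 genes whose solutions spread by more than 10%. Gene identifiers were matched to the RefSeq annotation of TAIR10.1 (32809 of 33557, 97.8%), whose promoters and microRNAs supplied the sequences. Members of a list could be named whatever their result. Over the whole table the named genes were the 12 called genes with the largest fold in each direction that reached 5 FPKM in a group, up to 8 called genes listed at 0 in 1 group, and the 8 with the largest called difference between media in each direction. The members and lists were chosen with earlier results of these data known. Alternatives were a q of 0.01, a 2-fold minimum, recentred folds, a pseudocount of 1 FPKM, an FPKM minimum of 1, q-values adjusted within the comparison, nuclear protein-coding genes alone and, added after the data had been seen, overlapping genes left out. Computations used Python 3.11.15, pandas 2.3.3, numpy 2.4.6, SciPy 1.17.1, pysam 0.24.0 and matplotlib 3.10.9.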

Additional observations from a re-analysis of the deposited data

Results flagged for a closer look

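Each result here was marked because the fold of CPL4RNAi-labelled explants over wild type differed between the media in the normal test over all genes, with the value given as the log2 fold without minus that with 2iP. Among xylem, secondary wall and lignin genes every such difference was positive. The laccase genes LAC17, LAC11 and LAC4 differed by 3.57, 3.39 and 2.78. The protease genes XCP2, XCP1 and MC9 differed by 3.45, 3.36 and 1.26. The wall genes CTL2, CESA8, IRX9, ESK1 and CESA7 differed by 3.40, 3.30, 3.20, 3.10 and 1.82, and the regulator VND3 by 1.59. In the monolignol pathway PAL2, PAL1, 4CL1, CCOAOMT1, C3H1, HCT and PAL4 differed by 1.20, 0.95, 0.94, 0.85, 0.80, 0.71 and 0.62. The cambium genes PXY and ATHB8 differed by 1.51 and 0.78.

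Genes named for a large difference outside the lists were AT5G51890, AT1G72230 and GL22 in the positive direction, at 3.22, 2.91 and 2.91. In the negative direction they were AT3G27950 at -3.53, AT2G16005 at -1.88, AT5G47600 at -1.75, AT1G73600 and AT3G28600 at -1.66 each, WRKY62 at -1.62 and MES17 at -1.46. Hormone genes with a negative difference were IAA5 at -1.76, ARR7 at -1.07, GH3.6 at -0.99, PBS3 at -0.83, CKX5 at -0.69 and ARR4 at -0.57. The remaining list genes were LBD33 at 1.25, ARR11 at 1.20, HSP17.6A at 0.94, CHS at 0.81, DREB2A at 0.76, BRN1 at -1.23 and GSTU25 at -0.72. Part of these differences rests on the largest SE that the deposited p-values allow and not on a solved one.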

How the results depend on the processing

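No paired analysis was possible because the deposited table holds 1 value per group, and leaving out a replicate could not be run for the same reason. Under the planned settings no called gene of the lists changed direction; with overlapping genes left out, the median of the cytokinin inactivation list turned from -0.31 to 0.03. Requiring at least a 2-fold change left 1250 genes higher and 1022 lower without 2iP, the same with recentred folds, and 1129 higher and 1390 lower with 2iP. For the difference between media, genes with a solved SE alone gave 129 positive and 22 negative calls and an adjusted p of 0.01 gave 201 and 24. The setting with a solved SE alone leaves out the 230 calls that used an upper bound and adjusts over fewer genes. Of the 463 calls, 233 had a solved SE. The other settings moved the counts of higher and lower genes without 2iP to between 3332 and 4485 and between 3175 and 4299. CPL4 was 1.27 to 1.33 higher on the log2 scale under the 4 settings run for it. Of 340 called list or named genes, 310 were still called at a q of 0.01, 176 with recentred folds and a 2-fold minimum, and 340 with q-values adjusted within the comparison. With CPL4 left out, 175 of 339 kept their call with the 2-fold minimum. Of 78 list counts, 4 moved by over 1.5 times at a q of 0.01, 41 with the 2-fold minimum and 3 without overlapping genes. With all members in place of called members, the MSA core was found in 60.0% of mitosis promoters and the E2F site in 44.4% of replication promoters. TERE was then found in 50.0% of cell death, 11.1% of secondary wall and 0.0% of xylem and fibre regulator promoters. Depth is unknown, and group values cannot show whether 1 library decides a fold.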

Other observations

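Genes of the organelles did not shift as a block. Of 61 tested chloroplast-encoded genes 13 were called higher and 6 lower in CPL4RNAi-labelled explants, and of 53 mitochondrial genes 11 were higher and 7 lower. Among small RNA genes, U2.2 stood at 39.1 FPKM in CPL4RNAi-labelled explants and at 13.5 FPKM in wild type, a log2 fold of 1.53 (SE at most 0.38). SYP124, a syntaxin gene that starts 1482 bases downstream of U12, stood at 1.61 FPKM against 0.188 FPKM (3.09, SE 1.18), and AT1G16825, which starts 280 bases downstream of U2.1, at 22.9 FPKM against 8.18 FPKM (1.48, SE at most 0.37). MIR163, a young microRNA gene, rose by 1.31, and MIR824 fell by 0.61.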
